A study of Mus musculus with 2 samples.

Results

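The genes described here are the antisense and bidirectional promoter RNA genes that were measurably expressed in the adrenal gland of 2 mice. They were chosen by their own levels: a gene entered when all its transcripts carry the type antisense or bidirectional promoter lncRNA (a long non-coding RNA transcribed away from a nearby gene's start) in the GENCODE M21 annotation, and when it reached 1 TPM in both libraries. TPM is a relative transcript abundance corrected for transcript length, with the same total in each library. Of 3138 genes so typed, 114 met the rule, 96 of them antisense and 18 bidirectional promoter RNAs, among 55450 genes of all types in the tables. The rule left out 6 genes by name, and the 3 of these that carry the types were below the threshold in at least 1 library. The members are selected on level, so their levels are a description with no test.

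The study holds total RNA of whole adrenal glands from 2-month-old female B6CASTF1/J mice, first-generation hybrids of C57BL/6J and CAST parents, with no treatment named in the labels. There was 1 group of 2 samples, called animal 1 and animal 2, with 1 library each made from 300 ng of RNA after ribosomal RNA reduction and with ERCC spike-in RNA added. The labels conflict on whether the samples came from different animals, and their biological replicate numbers were followed. If they share an animal, the spread between them is technical. The tables give 1 value per gene and do not separate the parental alleles. In whole tissue, fewer cells of a type and less RNA per cell cannot be told apart.

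Antisense RNAs are transcribed from the strand opposite to another gene, and many overlap it. Many promoters of protein-coding genes start transcription in both directions, and the RNA that leaves in the upstream direction is often spliced little, degraded quickly and kept in the nucleus. A few antisense RNAs act on their neighbours in cis, Airn at the imprinted Igf2r locus being a textbook case, while for most no function is known.

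Annotated genes received 34203664 expected counts in animal 1 and 35959484 in animal 2. The 114 genes took 0.0554% of them in animal 1 and 0.0580% in animal 2. Per gene they held from 9 to 2910 counts in animal 1 and from 10 to 3486 in animal 2, with a median of 74.5 in each, so counting error is wide for many of them. Where a gene has 0 counts, a true value of up to 3 is allowed. Markers of adrenal cortex and medulla were high in both glands: 7 of 7 cortex and 6 of 6 medulla markers reached 1 TPM. Summed, the cortex markers stood at 15866 and 18288 TPM and the medulla markers at 2093 and 1809.

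Expression at this level was uncommon among these types. Only 3.26% of antisense genes and 9.52% of bidirectional promoter genes reached 1 TPM in both libraries, beside 2.27% of lincRNA genes, 53.7% of protein-coding genes and 23.2% of all genes. Nothing is read from these shares, since the same threshold chose the members. Near the threshold, AC090479.2 (1.01 and 1.00 TPM in animals 1 and 2), Gm30025 (1.00 and 1.54) and C920021L13Rik (1.01 and 1.09) entered. B430219N15Rik (1.36 and 0.99), D830050J10Rik (1.04 and 0.98) and Gm49417 (1.26 and 0.98) did not.

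Each gene was paired with a partner, the annotated opposite-strand gene that its span overlaps, or failing that the gene whose start lies head to head with it within 5 kb. Where several genes overlapped, protein-coding ones came before others, and then the longest exon overlap decided. All but Gm13010 had a partner, and all 113 partners are protein-coding, which this order of choice favours. For 44 of 114 genes (38.6%) the partner starts within 1 kb and runs the other way, the head-to-head arrangement, beside 17.4% of the 3024 genes of the same types below the threshold. By type, 14 of 18 bidirectional promoter RNAs and 30 of 96 antisense RNAs were head to head with the partner. The bidirectional type is itself defined by such a start, and 189 of all 3138 genes carry it. Only 20.2% of the 114 lay inside the span of the partner, beside 52.3% of the others. A further 26 overlapped the partner tail to tail, 16 overlapped its start by more than 1 kb and 4 enclosed it. When every annotated opposite-strand gene was considered rather than the partner alone, 65 of 114 (57.0%) had a head-to-head neighbour within 1 kb, beside 25.1% of the others. No test was made of these shares, since neighbouring genes are not independent.

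**Figure D1:**
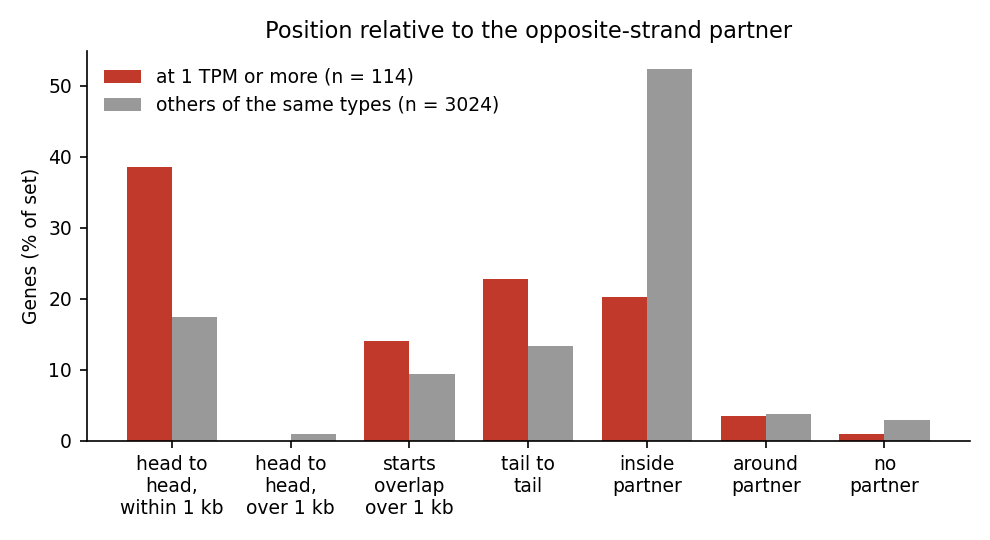
Share of genes (vertical axis, percent of each set) by position relative to the opposite-strand partner (horizontal axis), for the 114 expressed antisense and bidirectional promoter RNA genes (red) and the 3024 genes of the same types below the threshold or left out (grey). Head-to-head partners within 1 kb make up 38.6% of the first set and 17.4% of the second, and genes inside their partner 20.2% and 52.3%.

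In 17 of the 44 head-to-head pairs the genes do not overlap, and the bases between both annotated starts are called a spacer. Whether a spacer acts as a promoter of both genes was not tested. These spacers run from 15 to 467 bases with a median of 128, and the other 27 pairs overlap at their starts. Sequence was at hand for 15 spacers, from the RefSeq promoter table of GRCm38.p6, the assembly that mm10 names. The first 6 shown are those of the most abundant RNAs among the 15, and the last 2 lie beside the most abundant partners, Tpt1 and Actg1. Each is written 5′ to 3′ on the partner's strand, from the first base after the RNA's start to the last before the partner's. Capitals mark matches, on either strand, to any of 5 motifs. The CCAAT box was searched by the letters of its name. The core of the sites of ETS factors, a family of activators, was searched as CCGGAAG. The E-box, bound by factors such as USF and MYC, was searched as CACGTG. The TATA box, which places the start in many promoters of regulated genes, was searched as TATAAA. Part of the site of NRF1, a regulator of many mitochondrial genes, was searched as GCATGCGC. None of the 5 contains another.
2310010J17Rik and Picalm, chr7:90129985-90130212, plus strand: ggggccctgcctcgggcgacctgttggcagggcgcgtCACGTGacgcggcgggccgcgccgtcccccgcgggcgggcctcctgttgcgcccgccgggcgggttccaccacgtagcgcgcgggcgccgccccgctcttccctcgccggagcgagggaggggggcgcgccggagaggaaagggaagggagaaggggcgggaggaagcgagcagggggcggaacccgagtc
4632427E13Rik and Rab30, chr7:92741469-92741602, plus strand: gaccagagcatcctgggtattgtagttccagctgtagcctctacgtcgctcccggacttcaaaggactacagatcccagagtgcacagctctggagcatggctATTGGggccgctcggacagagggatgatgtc
2810013P06Rik and Ankrd11, chr8:123042278-123042465, minus strand: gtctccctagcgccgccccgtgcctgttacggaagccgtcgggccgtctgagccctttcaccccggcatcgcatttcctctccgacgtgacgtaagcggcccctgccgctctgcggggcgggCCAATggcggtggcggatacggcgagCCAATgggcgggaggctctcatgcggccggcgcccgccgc
Gm11423 and Lig3, chr11:82781043-82781107, plus strand: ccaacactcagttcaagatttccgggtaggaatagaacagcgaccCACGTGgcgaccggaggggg
2610306M01Rik and Aak1, chr6:86849441-86849516, plus strand: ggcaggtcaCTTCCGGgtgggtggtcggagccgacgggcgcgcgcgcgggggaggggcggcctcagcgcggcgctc
2610016A17Rik and Dmrt2, chr19:25672254-25672410, plus strand: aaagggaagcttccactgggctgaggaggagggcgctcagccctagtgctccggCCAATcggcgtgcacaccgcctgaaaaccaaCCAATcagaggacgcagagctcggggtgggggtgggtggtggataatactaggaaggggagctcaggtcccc
Gm4285 and Tpt1, chr14:75844965-75845092, plus strand: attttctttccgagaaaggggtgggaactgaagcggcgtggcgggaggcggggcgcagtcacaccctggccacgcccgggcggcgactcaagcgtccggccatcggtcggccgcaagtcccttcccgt
0610009L18Rik and Actg1, chr11:120348543-120348677, minus strand: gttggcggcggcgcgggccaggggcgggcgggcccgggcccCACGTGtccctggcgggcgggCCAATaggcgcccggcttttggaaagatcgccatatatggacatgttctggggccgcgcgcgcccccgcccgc
The spacers are rich in G and C, at 78.9% beside Picalm, 81.6% beside Aak1 and 56.7% beside Rab30. Of the 15 spacers, 9 held at least 1 of the 5 motifs, with no background count for stretches of these lengths. In the promoter windows described next, the CCAAT box alone occurred in 37.9% of all promoters. A match is a description of letters, not of binding.

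Over promoter windows of 250 bases before to 50 after each start, 70 of the 114 genes were matched in the RefSeq table by symbol. CpG-rich windows, with at least 50% G and C and a ratio of observed to expected CpG of at least 0.6, made up 60.0% of them, beside 34.1% of all 27025 promoters, 47.4% of protein-coding and 9.50% of lincRNA promoters. Among the 32 matched head-to-head genes the share was 68.8%. On either strand, the CCAAT box occurred in 48.6% of the genes' windows beside 37.9% of all, the ETS core in 17.1% beside 9.12%, the E-box in 12.9% beside 7.24%, the TATA box in 8.57% beside 14.2%, and the NRF1 motif in 1.43% beside 2.80%. The windows sit at RefSeq starts, and 7 of the 70 lie over 1000 bases from the GENCODE start of the gene. Over the other 63, the TATA box occurred in 4.76% and CpG-rich windows made up 65.1%. The genes were chosen by expression, while the promoters set beside them were not filtered by it, so the sets differ in that too. Where an RNA and its partner start close together, the window can hold bases before the partner's start as well.

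The most abundant RNAs stood far above the rest, which were low. The median was 2.02 TPM in animal 1 and 2.19 in animal 2, and together the 114 genes held 0.0557% and 0.0619% of nuclear TPM. Only 8 had a mean of 10 TPM or more, 94 were below 5 and 57 below 2. The 5 most abundant held 31.5% of the summed mean TPM.

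Ndufb1-ps (chr12:101968090-101977068, minus strand) led, at 67.8 TPM in animal 1 and 39.2 in animal 2, a mean of 53.5 ± 20.3 TPM (SD, n = 2). GENCODE types it as a bidirectional promoter RNA beside Cpsf2, a subunit of the cleavage and polyadenylation complex, but RefSeq lists its symbol as a synonym of the protein-coding Ndufb1, a subunit of mitochondrial complex I. 4930426D05Rik, the fifth in order and on chromosome 18, is also protein-coding in RefSeq, and it stood at 18.1 and 23.9 TPM. Of the 83 genes found in RefSeq by symbol, the other 82 are lncRNA there. The 2 exceptions are thus counted here by their GENCODE type only.

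Gm20400 (chr6:142161493-142173796, plus strand), inside the transporter gene Slco1a6, followed at 34.0 and 19.1 TPM, but its counts are absent from the second quantification, as given further on. A530020G20Rik (chr3:121531619-121536206, plus strand), head to head with the choline transporter-like gene Slc44a3, was at 18.3 and 27.9 TPM. Tug1 (chr11:3639785-3649673, minus strand), a widely expressed lncRNA head to head with the chromatin ATPase gene Morc2a, was at 20.9 and 25.1 TPM, or 23.0 ± 3.01 (SD, n = 2). Tug1 also held the most counts, 2910 and 3486, and its level is therefore among the most precise here.

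Among the next in order, Tbx3os1, opposite the T-box transcription factor gene Tbx3, stood at 13.96 and 16.5 TPM. Gm16062, tail to tail with the COP9 signalosome gene Cops3, was at 10.2 and 16.1 TPM. Gm47547 was at 8.79 and 12.7 TPM, but 77.7% of its 31-base stretches recur on the same strand of other annotated transcripts, most of them of AC132253.9, so its reads cannot be assigned with certainty. The remainder of the leading 20 lay between 4.11 and 9.75 TPM in each animal, among them Rab26os, Rab10os, Brip1os, Hoxb5os and Gt(ROSA)26Sor. Gm26782, head to head with the telomerase-associated protein gene Tep1, was at 7.15 and 8.19 TPM, and Gm13594, head to head with Cobll1, at 6.37 and 5.94. Gt(ROSA)26Sor is the RNA of the Rosa26 locus, a common site for targeted transgenes, and was at 5.48 and 5.01 TPM.

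**Figure D2:**
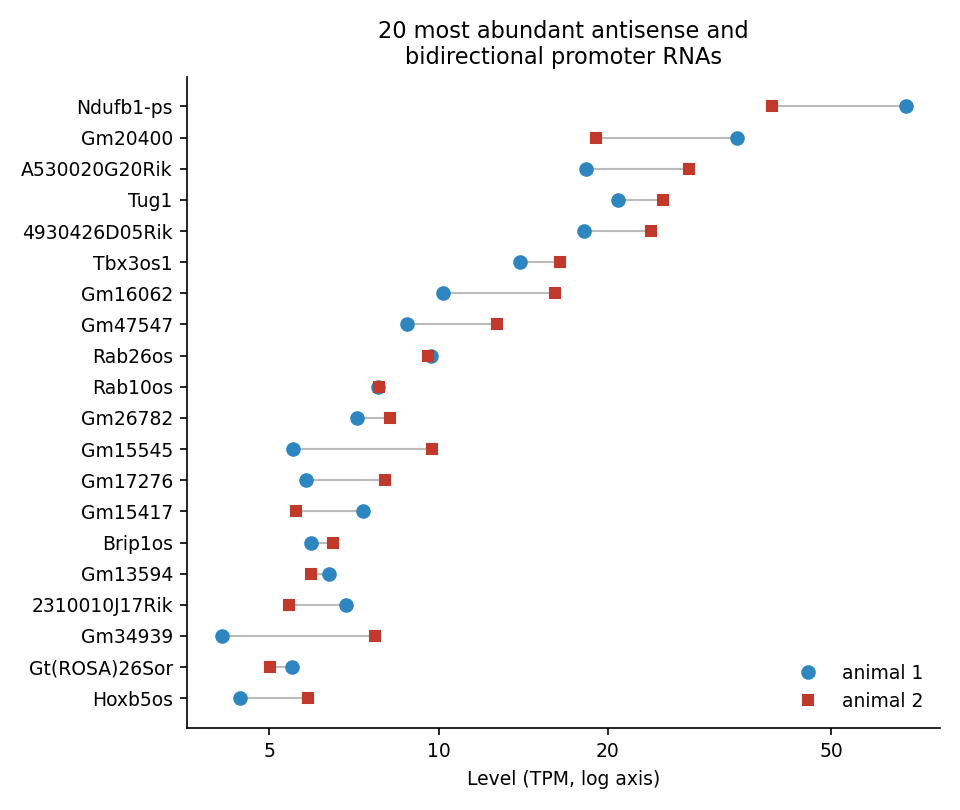
Level in TPM (horizontal log axis) of the 20 most abundant of the 114 RNAs (rows, in order of mean TPM), with a circle for animal 1, a square for animal 2 and a grey line between them. Ndufb1-ps and Gm20400 were higher in animal 1, while A530020G20Rik, Tug1, 4930426D05Rik, Tbx3os1 and Gm16062 were higher in animal 2. The symbols of Rab26os and Rab10os nearly coincide.

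The order is firm only where neighbours differ by more than the animals do. A530020G20Rik, Tug1 and 4930426D05Rik had overlapping pairs of values between 18.1 and 27.9 TPM, and Gm20400 at 19.1 TPM in animal 2 fell within the same range. All of these lay above both values of Tbx3os1. From Rab10os down to Hoxb5os, the ranges of neighbours in the order overlapped.

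The RNAs were mostly less abundant than their partners. In both animals 86 of 113 lay below the partner and 25 above it, and 2 were mixed. The rule itself places an RNA above any partner under 1 TPM in both animals, as 16 of the 113 partners were. The median RNA stood at 17.5% of the partner's TPM, a log2 ratio of -2.51. Without regard to pairing, the median was 2.01 TPM for these RNAs and 10.5 for protein-coding genes at 1 TPM in both libraries. Whether the RNAs lie lower against their own partners than against other protein-coding genes was not tested. Some 32 were below 10% of the partner in both animals. Partners reached 1 TPM in both libraries in 97 of 113 cases (85.8%), with a median of 11.4 TPM, beside 65.8% and 4.06 TPM for partners of the genes of the same types below the threshold. The partner's level was not part of the rule, although overlapping exons and shared tissue link both values.

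The lowest ratios belonged to RNAs beside abundant partners, which follows from the rule: an RNA chosen at 1 TPM or more can have a low ratio only against such a partner. Gm4285 was at 1.89 and 1.85 TPM, 0.204% and 0.1998% of Tpt1, which encodes translationally controlled tumour protein and stood at 927 and 926 TPM. 0610009L18Rik was at 1.37 and 1.28 TPM, 0.437% and 0.404% of Actg1, which encodes cytoplasmic gamma actin. AC110206.1 stood at 0.580% and 0.637% of Gpam, the enzyme of the first step of glycerolipid synthesis. Gm44732, 4732471J01Rik and 6330562C20Rik followed, at 0.749% and 0.944% of Cdkn1c, 1.18% and 0.899% of Lipe, and 1.46% and 1.53% of Cers2. The spacers beside Tpt1 and Actg1 printed above, of 128 and 135 bases, thus lie between genes whose TPM differ over 100-fold.

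At the other end, 16 partners were under 1 TPM in both animals, and the ratios against them rest on few partner counts. Ctcflos stood at 1.52 and 2.13 TPM with its germline partner Ctcfl at 0.01 and 0.04, B230354K17Rik at 4.13 and 4.37 with Spats1 at 0.06 in each, and Trmt61b at 3.99 and 4.96 with Spdya at 0.10 and 0.14. For Tmem147os and Gm20400 the partner is listed at 0 in animal 2, and for Gm16008 in animal 1, so no ratio is given there. B230354K17Rik and Tmem147os were below another gene that starts near them, as given further on. Of the 25 RNAs above their partner, 9 had a partner of at least 1 TPM in both animals. They include A530020G20Rik at 2.32 and 2.88 times Slc44a3, Tug1 at 2.19 and 2.17 times Morc2a, and 4632427E13Rik at 2.54 and 3.94 times Rab30, a GTPase of the Golgi.

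By arrangement, the median level was 15.9% of the partner for the 44 head-to-head RNAs, 21.6% for the 16 overlapping the start, 34.5% for the 26 tail to tail and 9.53% for the 23 inside the partner. The 4 that enclose their partner had a median of 619%, with 2 of the partners under 1 TPM in both animals. Head-to-head RNAs above their partner numbered 7, of which 5 had a partner of at least 1 TPM. No test was made between arrangements. The bidirectional promoter RNAs had a median of 2.02 TPM and the antisense RNAs 2.01, a difference far below the spread within either type, which ran from 1.18 to 53.5 TPM and from 1.01 to 26.6 TPM.

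**Figure D3:**
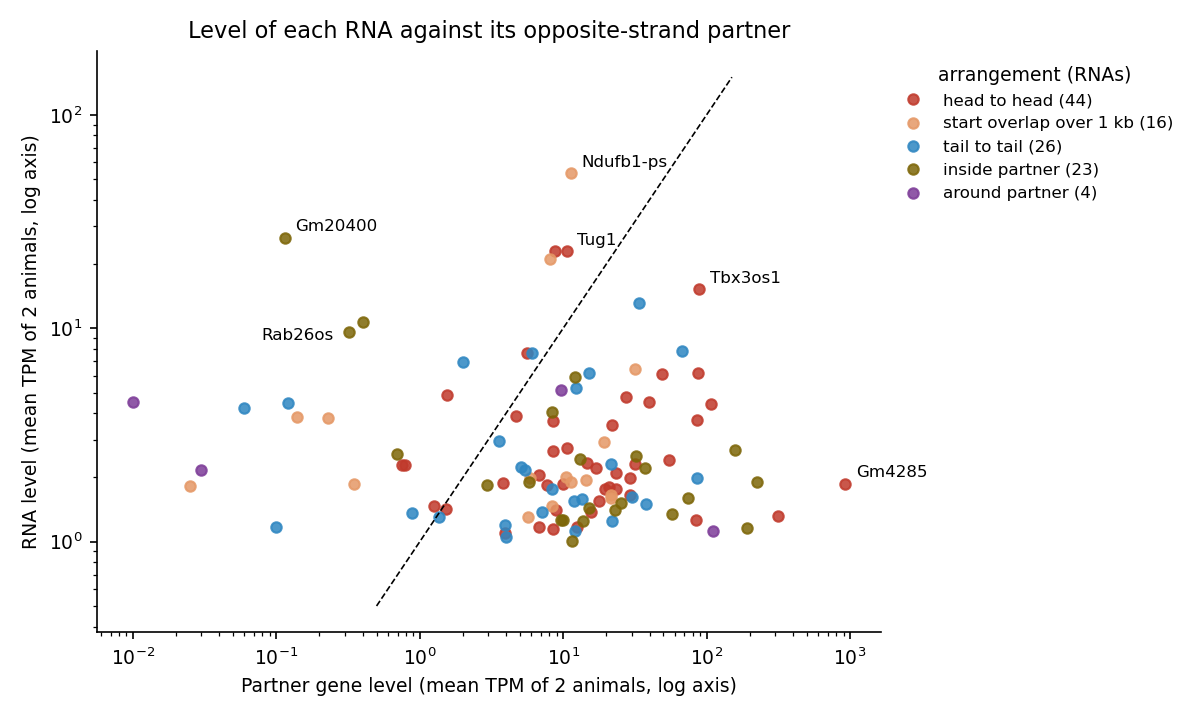
Mean TPM of each RNA (vertical log axis) against mean TPM of its opposite-strand partner (horizontal log axis), both over 2 animals, for 113 RNAs coloured by arrangement. The dashed line marks equal levels: 25 RNAs were above it in both animals and 86 below it, with Gm4285 farthest to the right, beside Tpt1.

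For 21 RNAs the gene head to head within 1 kb was not the partner but another protein-coding gene, and 20 of these neighbours reached 1 TPM in both animals. Gm16062 starts 64 bases from Flcn, a regulator of growth signalling at 22.9 and 30.5 TPM. Gt(ROSA)26Sor starts 32 bases from Setd5, a chromatin regulator at 25.5 and 33.6 TPM, and Tmem147os starts 39 bases from Tmem147, at 62.0 and 66.9 TPM. In 2 of the 21 the RNA was above this neighbour in both animals. One was Brip1os, at 5.92 and 6.49 TPM, while the DNA repair helicase gene Brip1 was at 0.23 and 0.22. The other was 9330151L19Rik, at 1.64 and 2.10 TPM beside Gm49383 at 1.61 and 1.43. Conversely, B230354K17Rik, Rab26os, Tmem147os, Gm15545, Atad3aos and 6330418K02Rik were above the partner but below their head-to-head neighbour in both animals. Cdc5l, 139 bases from the start of B230354K17Rik, was at 13.5 and 17.3 TPM. For these RNAs, being above or below depends on which gene is taken as the partner.

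Partners were also sorted by fixed lists. The steroid and cholesterol, chromaffin and immediate early lists named genes, and the others took all symbols with set first letters. A place in a list does not show a role in this tissue. Developmental transcription factors were the largest group, with 6 RNAs, of which 5 are described. Tbx3os1 was far below Tbx3, at 78.8 and 99.0 TPM. Hoxb5os, at 4.43 and 5.85 TPM, was below the homeobox gene Hoxb5 at 8.42 and 11.0. Hoxd3os1, at 3.71 and 3.90, was above Hoxd3 at 0.10 and 0.36. A830082K12Rik, at 1.79 and 2.20, was below the nuclear receptor gene Nr2f1 at 5.51 and 6.32, and Sox6os, at 1.43 and 2.36, below Sox6 at 3.93 and 7.68. Of these 5, Hoxd3os1 alone was above its partner in both animals.

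Vesicle traffic gave 4 RNAs. Rab10os was at 7.81 and 7.84 TPM beside the trafficking GTPase gene Rab10 at 64.0 and 71.5, and Gm17251 at 3.91 and 3.56 beside Rab11b at 84.4 and 85.6. Rab26os and 4632427E13Rik were above Rab26 and Rab30. Immediate early genes gave Junos, at 2.27 and 2.54 TPM beside the AP-1 gene Jun at 61.1 and 47.6, and Gm11175, at 2.09 and 1.12 beside Jund. The steroid and cholesterol list gave 1 RNA, 4732471J01Rik, at 1.09 and 1.16 TPM beside Lipe, the lipase that frees cholesterol from its esters, at 92.5 and 129. The mitochondrial list gave 2810001G20Rik beside Cox10, the DNA repair and cell cycle list Gm44732 beside Cdkn1c and 1810034E14Rik beside Cdc14b, and the RNA processing list Ndufb1-ps. No partner came from the chromaffin or translation lists, and 97 members belonged to none of the lists.

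Of the 114 RNAs, 15 carry a symbol that names another gene with the ending os. Sp3os was at 3.81 and 2.06 TPM, below the transcription factor gene Sp3 at 16.9 and 21.6, and Zbtb11os1 at 4.16 and 3.22 below Zbtb11 at 8.17 and 8.76. Bach2os, at 2.06 and 3.12, was above the lymphoid transcription factor gene Bach2 at 0.62 and 0.76, and Ttc39aos1, at 1.68 and 1.25, slightly above Ttc39a at 1.33 and 1.19. In the second quantification Ttc39aos1 did not count as above Ttc39a. For Brip1os, Tmem147os and Atad3aos the gene with the longest exon overlap was not the one named, and the partners used were Med13, Gapdhs and Vwa1.

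Airn, the imprinted antisense RNA that starts within Igf2r, was at 1.5 and 1.81 TPM, while Igf2r, the receptor that clears insulin-like growth factor 2, was at 19.7 and 23.2. Airn held 46 and 58 counts. Its exons do not overlap those of Igf2r in this annotation.

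Reads of overlapping opposite-strand exons can be told apart only when counting uses the strand. The libraries were made with a directional kit, and whether the counting step used that information was not given in these sources. Exons of 82 of the 114 genes overlap those of an opposite-strand gene. As a check, 63 genes of these types have at least 80% of their exon bases within exons of an opposite-strand partner at 10 TPM or more, and 46 of them were listed at 0 in animal 1, 46 in animal 2 and 42 in both. Their median was 0% of the partner's TPM, the 90th percentile 0.678% in animal 1 and 0.758% in animal 2. The highest was A930015D03Rik, at 11.4% and 15.0% of H2-T22, a member of a gene family with close copies.

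Only 4 of those 63 genes are among the 114. They are A930015D03Rik, Gm11175 within Jund, Gm19412 within Tapbp and Gm44732 within Cdkn1c, the last with 98.4% of its exon bases overlapping. Their levels, from 1.06 to 2.20 TPM, are uncertain for that reason. Counts were whole numbers in both libraries, to within 1e-06, in 110 of the 114 genes and in 79 of the 82 with exon overlap. The others were Tug1, Gm16008, Tmem147os and Gm47547, each of which shares bases or sequence on its own strand with another annotated gene.

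A second quantification of the same libraries, made from the reads and a transcript index, gave similar counts for most of the RNAs. The median ratio of its counts to the first was 1.06 in animal 1 and 1.10 in animal 2, beside 1.11 in each animal for all genes at 1 TPM. On the TPM scale the median log2 ratio was 0.80 for these RNAs and 0.69 for the 12837 genes at 1 TPM. For transcripts of at least 1000 bases, the second tables subtract a median of 327 and 316 bases from the length to give the effective length by which TPM divides, and the first subtract 99. The genes Rn7s1 and Rn7s2 were each listed at 165292 TPM in animal 1 and 102138 in animal 2 in the first tables. In the second tables each held 6 counts in animal 1 and 2 in animal 2. TPM has the same total in each library, so TPM held by these genes is not available to others. How much each of these differences adds to the shift in TPM was not tested. Of 113 RNAs averaging at least 10 counts, 6 (5.31%) had under 50% of their counts in both libraries, beside a background of 3.64%.

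The largest of these was Gm20400, with 673 and 357 counts in the first and 0 in both libraries in the second. 2900060B14Rik fell from 40 and 46 counts to 0 and 1, Gm44732 from 30 and 39 to 3 and 1, and Rab26os from 75 and 67 to 18 and 8. Gm11175 and Gm13307 had 25 and 13, and 17 and 21, counts in the first and 12 and 3, and 5 and 4, in the second. The second place in the order of levels thus rests on 1 quantification alone.

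Of these 6 RNAs, 2 hold a small RNA gene on the same strand, as 6 of all 114 do. Rab26os contains Snord60, a box C/D small nucleolar RNA of 78 bases, for which the first tables give an effective length of 0 and no counts. Only 1 of the 2 transcripts of Rab26os holds all 78 bases, and the transcript given 87.7% and 92.7% of the gene's TPM shares 7 of them. The stretch is shown because the small RNA and the less abundant transcript of Rab26os have it in common. It lies at chr17:24528476-24528553 on the plus strand and is written from the GENCODE M21 transcript, with the shared bases in lower case throughout.
Snord60 stretch of the less abundant Rab26os transcript: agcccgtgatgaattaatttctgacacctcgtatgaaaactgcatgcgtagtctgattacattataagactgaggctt
2900060B14Rik holds the small nuclear RNA gene Gm22710 of 125 bases, with 0 counts in both tables. Hotairm1 holds misc_RNA genes and went from 35 and 23 counts to 17 and 13. Whether small RNA reads make up the counts of these RNAs was not tested.

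In the other direction, the 5 RNAs with the largest rise in TPM were 4930511M06Rik, Ndufb1-ps, Ttc39aos1, Gm27003 and A830082K12Rik, with log2 ratios from 1.54 to 1.61. 4930511M06Rik shares bases on its strand with 1700066O22Rik and went from 138 and 142 counts to 235 and 308. The counts of Ndufb1-ps went from 1025 and 570 to 1198 and 650. Both quantifications put Ndufb1-ps first.

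**Figure D4:**
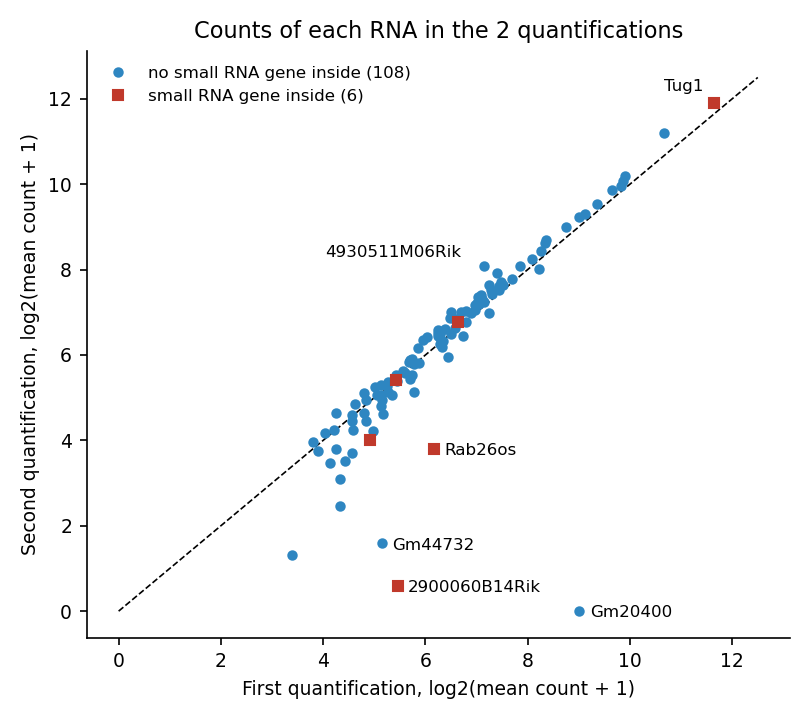
Counts of the 114 RNAs in the second quantification (vertical axis) against the first (horizontal axis), each as log2 of the mean count of 2 animals plus 1, with squares for the 6 RNAs that hold a small RNA gene on their strand. Most points follow the dashed line of equal counts, while Gm20400, 2900060B14Rik, Gm44732 and Rab26os lie far below it.

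Between the animals the RNAs' median ratio was close to 1, while their spread was wider than that of all genes. The interquartile range of the log2 ratio was 0.49 beside 0.33 for all genes among those averaging at least 100 counts, and 0.53 beside 0.41 at 10 counts. The background holds many genes of higher counts. On counts scaled by the trimmed mean of M-values and with a prior of 0.5 counts, animal 2 stood over animal 1 by a median log2 ratio of 0.04 among the 113 RNAs averaging at least 10 counts, beside -0.02 over 17298 genes with the same filter. In animal 2, 64 of 113 were higher (56.6%), beside a background of 47.8%. Scaling by the ERCC spike-ins moved the median of all genes to 0.19 and of the RNAs to 0.24, with 87 of 113 (77.0%) then higher in animal 2 beside 73.2% of all genes. The RNAs' median was 0.05 above that of all genes, and such a scaling moves all genes alike. The same difference was 0.02 on deposited TPM and 0.11 in the second quantification. With 2 samples of 1 group there is no test between them, and the 95% intervals given are exact Clopper-Pearson intervals that cover counting error only.

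Of 43 RNAs averaging at least 100 counts, 0 were over 2-fold apart, beside a background of 1.37%, and 5 (11.6%) were over 1.5-fold apart, beside a background of 5.68%. Gm20400 was 1.90 times higher in animal 1 (interval 1.67 to 2.17), with 673 against 357 counts. Ndufb1-ps was 1.82 times higher in animal 1 (1.64 to 2.02), while Cpsf2 was only 1.09 times higher. Gm34939, inside the chromatin remodeller gene Smarcd1, was 1.75 times higher in animal 2 (1.35 to 2.29), Gm15545 1.64 times (1.29 to 2.09) and A530020G20Rik 1.55 times (1.44 to 1.67). Their partners Smarcd1, Bcl2l12 and Slc44a3 had ratios of 1.04, 1.16 and 1.08. These 5 ratios exceed counting error, but with 1 sample per animal they cannot be set against a spread within an animal.

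The next in order were smaller. In animal 1, 9530082P21Rik was 1.41 times higher (1.06 to 1.88), Gm10561 1.40 times (1.13 to 1.75) and Zbtb11os1 1.38 times (1.10 to 1.74), and Gt(ROSA)26Sor at 1.22 times had an interval that includes 1 (0.98 to 1.52). In animal 2, Gm16062 was 1.48 times higher (1.25 to 1.75), Tmem147os 1.42 times (1.11 to 1.82) and 1110002L01Rik 1.38 times (1.07 to 1.80). Intervals without 1 were found for 35 of 113 RNAs, beside a background of 45% for all genes with the same filter, most of which hold more counts.

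Among all 113 RNAs averaging at least 10 counts, 2 (1.77%) were over 2-fold apart, beside a background of 5.27%. Gm13010, with 116 and 48 counts, was 2.43 times higher in animal 1 (1.73 to 3.50). C920021L13Rik held 9 and 19 counts, and its interval for animal 2 over animal 1, 0.90 to 5.24, includes 1. Gm13010 is the RNA with no annotated partner.

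Of the marker lists of adjoining tissues and blood, some differed between the glands. All 5 brown fat markers were higher in animal 2, with summed levels of 651 and 1261 TPM. The 5 kidney markers summed to 19.9 and 0.46 TPM, of which Kap held 16.5 in animal 1. Kap, Slc34a1 and Umod were at 0 counts in animal 2, while Aqp2 was at 0.28 TPM in each. Blood markers summed to 1128 and 1985 TPM and liver markers to 168 and 107, while white fat markers stood at 1585 and 1774 and pancreas markers at 21.99 and 18.8. The part of these tissues in the differences of the RNAs was not tested.

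**Figure D5:**
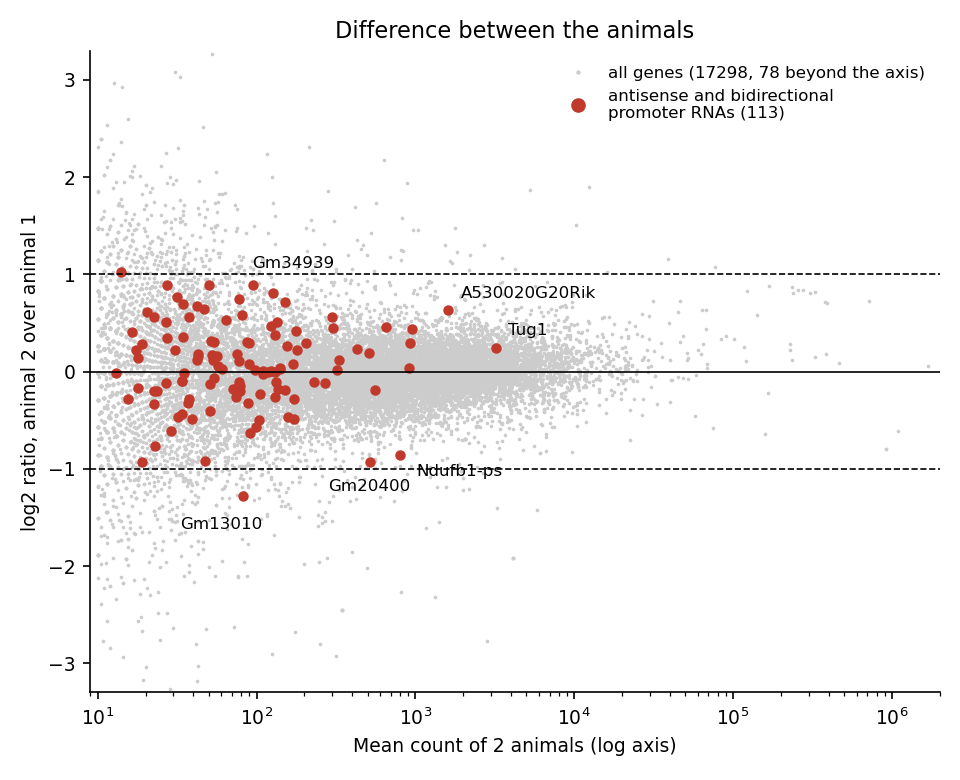
Log2 ratio of animal 2 over animal 1 (vertical axis) against mean count (horizontal log axis) for the 113 RNAs with at least 10 mean counts (red) and all 17298 genes with the same filter (grey). Dashed lines mark 2-fold differences: Gm13010 and C920021L13Rik lie outside them, and Gm20400 and Ndufb1-ps just inside.

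The ratio between the animals of an RNA and that of its partner showed little relation. Over 104 pairs with at least 10 mean counts on both sides, Pearson's r of the log2 ratios was 0.03 and Spearman's rho 0.08, and 60 pairs moved the same way. Over the 43 head-to-head pairs r was 0.02, with 26 moving the same way. Over the 36 pairs with at least 100 mean counts r was 0.17. These are descriptions across genes from the same 2 libraries, with no test, and counting error on the low RNAs limits any correlation.

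Most RNAs had several annotated transcripts, and the estimates named the same leading one in both animals in 58 of 78 such genes. In 49 the leading transcript held over 50% of the gene's TPM in both animals, and in 9 over 90%. Large shifts were seen at few counts and at moderate ones alike. The share of the leading transcript of 2010007H06Rik was 60.3% in animal 1 and 100% in animal 2, on 256 and 354 counts. In 1600020E01Rik the leading transcript of animal 1 went from 65.9% to 32.9%, on 160 and 142 counts. The remaining 36 of the 114 genes have a single transcript (31.6%), beside 77.2% of the genes of the same types below the threshold. These shares are the authors' estimates from short reads, and the 2 examples were chosen after their values were seen.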

How the data were processed

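Total RNA-seq of 2 adrenal glands was analysed from the processed tables. Per the file headers and the labels, the authors deposited expected counts (estimated reads per gene or transcript), TPM, the percent of gene TPM that each transcript holds, lengths, and, as other values used, the bounds of a TPM interval of unstated level. A deposited second transcript table gives estimated counts and TPM from the reads and a transcript index. All use mm10 and GENCODE M21, per the deposited file list. Aligner, versions and strand setting are not given in the sources at hand.

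The members, the partner lists and the rules were chosen with earlier results of these data known. Members were those with at least 1 TPM in both gene tables. Positions came from GENCODE M21, and promoter sequences from RefSeq on GRCm38.p6. Expected counts were rounded for edgeR 4.0.16 scaling factors (1.02 and 0.981) and DESeq2 1.42.0 size factors, and used as deposited for ratios. Ratios used a prior of 0.5 counts, scaled to library size, and a mean of at least 10 counts (100 for fold counts). Intervals were Clopper-Pearson at 95%. Log2 quantification ratios used a pseudocount of 0.1 TPM. The ratio step was tested on simulated data.

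The text names the 20 most abundant members, the 6 with the largest ratio between the animals in each direction among those averaging at least 100 counts, the 6 highest and lowest against their partner, the 5 with the largest quantification difference in each direction, those with a partner in a list, and the members nearest the threshold. The values of 1 pair of the developmental list are not reported here, though the counts include it.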

Additional observations from a re-analysis of the deposited data

How the results depend on the processing

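No paired analysis was possible because the labels give 1 group, so no 2 groups share replicate numbers. The cause of the changes below was not tested, except where fewer genes entered by construction. With other thresholds the set held 207 genes at 0.5 TPM, 51 at 2 TPM and 207 at 1 TPM of the second quantification, and between 125 and 138 on a single library. In the second quantification the median was 3.61 TPM, the share of nuclear TPM 0.122% and the median log2 ratio over the partner -2.29. It placed 22 RNAs above the partner, 21 of them shared with the 25 of the first. Gm20400, Gm15545, Ttc39aos1 and Atad3aos were above in the first only, and Gm15241 in the second only. Rn7s1 and Rn7s2, named above, take almost no TPM there. TPM, its shares and a threshold of 1 TPM are thus not on the same scale in both quantifications. Single libraries gave medians from 2.02 to 2.19 TPM, shares from 0.0557% to 0.0619%, log2 ratios over the partner from -2.59 to -2.40, from 25 to 27 RNAs above the partner, from 92 to 93 of all 114 RNAs, the 36 of a single transcript included, with a leading transcript over 50% in that library, and a log2 ratio of the second quantification over the first from 0.63 to 0.92. Head-to-head pairs alone had a median log2 ratio of -2.66 with 7 RNAs above the partner, and 6 of 31 RNAs with no exon overlap were above theirs. With starts within 300 bases, 27 genes were head to head. The correlation with partners was 0.17 at 100 mean counts and -0.13 with no exon overlap. Under spike-in scaling the median log2 ratio between the animals was 0.24 and 1 RNA, Gm34939, was over 2-fold apart among those averaging at least 100 counts. With the main scaling and at least 10 mean counts, 2 were, beside a background of 5.27%. The background share over 2-fold under spike-in scaling is not given here. In the second quantification Gm20400 has no counts, so no ratio is given there, and the other 11 ratios named among RNAs averaging at least 100 counts kept their direction under all 5 alternatives. Of the 113 RNAs averaging at least 10 counts, 64 were higher in animal 2, beside a background of 47.8%. Leaving out the 6 RNAs with under 50% of their counts in the second quantification, a choice made after seeing the data, left 61 of these 64. RNAs near 1 TPM hold few counts, and depth limits their ratios.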
